A study of Homo sapiens with 4 samples.

Results

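The genes described here encode subunits of the Polycomb repressive complexes. They were taken by symbol from the count table of a leukaemia RNA-seq experiment: EZH1, EZH2, EED, SUZ12, RBBP4 and RBBP7 of the core of Polycomb repressive complex PRC2, its accessory subunits JARID2, MTF2 and PHF19, and BMI1 of complex PRC1. All 10 symbols matched 1 row each of the 57992 genes in the table, and the rule uses the symbols only.

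The cells were Molm13, a human acute myeloid leukaemia (AML) cell line, in a derivative labelled VEN-R, which stands for resistance to the BCL2 inhibitor venetoclax. The control group was 2 libraries of VEN-R cells labelled shCtrl with wild-type genotype, and the other group was 2 libraries of VEN-R cells labelled shPRMT9 with PRMT9 knockdown. PRMT9 is a protein arginine methyltransferase. All 4 libraries, controls included, came from cells given doxycycline (Dox) induction, so no library shows uninduced or venetoclax-sensitive cells. Neither the hairpin sequence nor the number of clones is given in the sources used here. The labels number the libraries 1 and 2 in each group but do not say that these were separate cultures. The p-values given here thus reflect library-to-library spread alone, which may be technical.

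PRC2 is the enzyme complex that methylates lysine K27 of histone H3, a mark of silenced genes. EZH2 or its relative EZH1 carries the catalytic SET domain, EED binds the methyl mark and stimulates the enzyme, SUZ12 holds the complex together, and RBBP4 or RBBP7 binds histones. PRC2 carries either JARID2 with AEBP2 or a Polycomb-like protein (PHF1, MTF2 or PHF19), which help to bring the complex to chromatin, and PRC1, with BMI1 or a related PCGF protein, adds ubiquitin to histone H2A. In myeloid leukaemia both gain and loss of PRC2 function have been described, and the core PRC2 genes are known targets of the E2F factors that drive the cell cycle.

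The start-site regions of EZH2 and EZH1, the alternative catalytic subunits that moved in opposite directions, are shown with those of SUZ12, a core subunit that fell, and JARID2, the accessory subunit that rose. Each line gives 250 bases before to 50 bases after a RefSeq start site in build GRCh38.p14, read 5′ to 3′ on the gene's strand. Capitals mark matches, on either strand, to 4 forms of the E2F site (TTTCCCGC, TTTCGCGC, TTTGCCGC and TTTGGCGC) and to CCAAT, the box bound by NF-Y, which reads ATTGG when it lies on the other strand. The EZH2 window is chr7:148884242-148884541 (minus strand), the EZH1 window chr17:42744991-42745290 (minus strand), the SUZ12 window chr17:31936757-31937056 (plus strand) and the JARID2 window chr6:15245819-15246118 (plus strand).
EZH2: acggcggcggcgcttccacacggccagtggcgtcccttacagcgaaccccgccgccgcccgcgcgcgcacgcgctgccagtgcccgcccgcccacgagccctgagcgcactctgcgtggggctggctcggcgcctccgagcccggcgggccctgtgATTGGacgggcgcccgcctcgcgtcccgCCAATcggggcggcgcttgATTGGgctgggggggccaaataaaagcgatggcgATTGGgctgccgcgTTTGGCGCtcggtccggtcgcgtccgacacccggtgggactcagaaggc
EZH1: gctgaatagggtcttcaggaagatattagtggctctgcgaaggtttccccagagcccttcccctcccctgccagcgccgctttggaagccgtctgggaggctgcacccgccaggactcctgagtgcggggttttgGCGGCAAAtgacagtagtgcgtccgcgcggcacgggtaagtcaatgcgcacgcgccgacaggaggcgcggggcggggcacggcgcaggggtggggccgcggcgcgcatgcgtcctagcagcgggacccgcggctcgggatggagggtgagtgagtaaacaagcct
SUZ12: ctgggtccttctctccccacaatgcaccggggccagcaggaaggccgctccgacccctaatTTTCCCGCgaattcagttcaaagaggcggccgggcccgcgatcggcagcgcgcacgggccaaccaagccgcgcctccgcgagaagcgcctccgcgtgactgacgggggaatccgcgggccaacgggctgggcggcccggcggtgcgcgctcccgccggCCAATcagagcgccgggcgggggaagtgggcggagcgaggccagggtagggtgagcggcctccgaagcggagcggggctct
JARID2: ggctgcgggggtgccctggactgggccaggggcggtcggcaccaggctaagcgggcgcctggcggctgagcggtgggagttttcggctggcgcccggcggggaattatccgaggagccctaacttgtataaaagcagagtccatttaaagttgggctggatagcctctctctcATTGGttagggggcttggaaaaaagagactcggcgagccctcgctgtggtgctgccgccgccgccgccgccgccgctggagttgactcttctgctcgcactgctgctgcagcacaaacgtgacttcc

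The EZH2 window held 1 E2F match and 4 CCAAT matches, the most CCAAT matches of any member. The EZH1 window held 1 E2F match and no CCAAT, SUZ12 held 1 of each, and JARID2 held 1 CCAAT and no E2F match. Over all members, with the window nearest to the gene's 5′ end in the count table's annotation, an E2F match was present in 5 of 10 (EZH1, EZH2, SUZ12, MTF2 and PHF19) and CCAAT in 7 of 10. Of 35116 RefSeq windows of the same length, 3.31% held an E2F match, 34.6% held CCAAT and 3.26% held CCAAT at least 3 times. Another motif, TTTGAA (the cell cycle homology region), was in the SUZ12 window alone among the members and in 15.2% of all windows. The PHF19 window lay 17708 bases from the 5′ end of the annotated gene and stands for an inner start site. For EED and JARID2 the start sites used lay 209 and 227 bases from the annotated 5′ ends. Of the members with an E2F match, EZH1 rose and EZH2, SUZ12, PHF19 and, only just, MTF2 fell. Of those with none of the 4 forms, JARID2 rose and EED, RBBP4, RBBP7 and BMI1 fell. The part of these matches in the changes was not tested. Only exact matches were counted, so related sites could be missed. Examples that differ in 1 base from a form on either strand are gttggcgc (RBBP4), tgtggcgc (BMI1) and gcggggaa (JARID2). Such near matches were not counted over the members or over all windows. The matches are descriptions of letters and were not linked to binding.

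Of the whole table, 15193 genes had enough reads to be tested, with 28592902 to 33845172 counts per library. The knockdown was visible: PRMT9 counts were 398 and 406 under control shRNA against 81 and 78 under PRMT9 shRNA, a 5.59-fold lower level (log2 fold change -2.48, SE 0.12, edgeR adjusted p 5.24e-13). Log2 levels across genes correlated at 0.993 between the control libraries, 0.995 between the PRMT9 shRNA libraries and 0.966 to 0.968 between groups, and no library stood apart from its group. All 8 myeloid markers examined were above 1 CPM (a counts-per-million value) in every library, and all 4 erythroid markers were at 0. Of 5 epithelial markers, EPCAM and KRT19 were at 0 and CDH1 was under 0.1 CPM, while KRT8 (5.32 and 5.08 CPM in controls, 10.6 and 11.2 CPM after knockdown) and KRT18 (21.9 and 22.5 CPM, then 26.1 and 24.3 CPM) were called higher. Of 6 lymphoid markers only NKG7 exceeded 1 CPM throughout, and it was called higher (15.2 and 14.1 CPM, then 26.3 and 27.3 CPM). The part of these markers in the members' values was not tested. The groups differed broadly, with 67.9% of the tested genes called at an adjusted p below 0.05 (33.4% higher and 34.5% lower with PRMT9 shRNA). Among genes averaging at least 10 CPM, the level range in which every member lies, 82.4% were called, 33.7% higher and 48.7% lower. A test against a minimum fold of 1.5 called 19.1% of the tested genes.

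With PRMT9 shRNA, the transcripts of 8 members fell (EZH2, EED, SUZ12, RBBP4, RBBP7, MTF2, PHF19 and BMI1) and those of EZH1 and JARID2 rose, although with upper-quartile scaling only 5 of the 8 passed the test and MTF2 turned slightly positive. The 8 of 10 lower stand against 48.7% of genes of like level, and the 2 of 10 higher against 33.7%. The members' median log2 fold change was -0.29, against 0.00 over all tested genes and -0.10 over genes at 10 CPM or more. Their median absolute change of 0.46 stood beside 0.40 for all tested genes and 0.34 for those at 10 CPM or more. Against a minimum fold of 1.5 only JARID2 (higher) and EZH2 (lower) were called, which is 2 of 10 beside 19.1% of all genes. In bulk RNA, fewer cells of a type and less RNA per cell cannot be told apart.

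**Figure D1:**
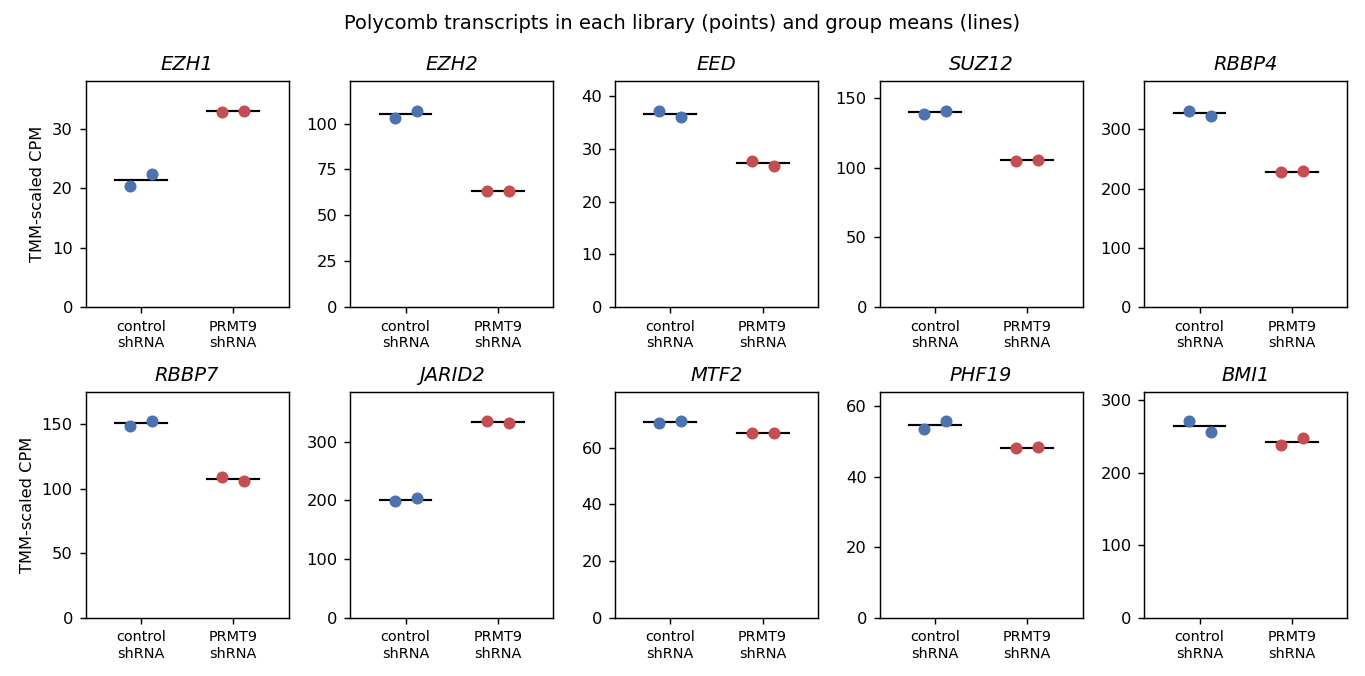
Depth-scaled counts (TMM-scaled CPM, linear axis from 0) of each member in the 2 control and 2 PRMT9 shRNA libraries; points are libraries and lines the group means. MTF2 goes from 68.5 and 69.3 CPM in controls to 65.0 and 65.1 CPM, and JARID2 from 199 and 203 CPM to 335 and 332 CPM.

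The catalytic subunits went in opposite directions. EZH2 (ENSG00000106462, chr7:148807383-148884321, minus strand, GRCh38), the main H3K27 methyltransferase of dividing cells, was at 103 and 107 CPM under control shRNA and at 63.1 and 63.2 CPM under PRMT9 shRNA. Both knockdown libraries lay well under both controls. Its mean fell from 105 ± 2.7 to 63.2 ± 0.07 CPM (SD, n = 2), a fall of 40.0% (log2 fold change -0.74, SE 0.03, edgeR adjusted p 2.75e-13). That placed EZH2 at percentile 9.28 of the log2 fold changes of all tested genes.

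EZH1 (ENSG00000108799, chr17:42700275-42745049, minus strand), the paralogue with weaker enzyme activity that is typical of non-dividing cells, had 618 and 633 counts with control shRNA and 1012 and 1122 with PRMT9 shRNA. Scaled for depth these were 20.4 and 22.3 CPM against 32.7 and 33.1 CPM, with no overlap. The mean rose from 21.4 ± 1.34 to 32.9 ± 0.23 CPM, by 53.9% (log2 fold change 0.62, SE 0.06, edgeR adjusted p 1.16e-08). The 95% interval of the log2 change, 0.50 to 0.74, includes a 1.5-fold rise, and the test against that fold did not call EZH1 (adjusted p 0.38).

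Levels of the paralogues can be set side by side per exon length, in the RPKM (reads per kilobase of exon, scaled to library depth) that the authors deposited. EZH2 stood at 7.81 and 7.41 times EZH1 in controls and at 2.98 and 2.96 times EZH1 after knockdown. EZH1 thus made up 11.3% and 11.9% of the EZH1 plus EZH2 transcript level in controls and 25.1% and 25.3% after knockdown. The EZH2 to EZH1 ratio changed by -1.36 on the log2 scale, far beyond the spread within either group. With 2 libraries against 2, the exact two-sided permutation test of that ratio gave p = 0.333, the smallest value this design allows. The summed level of both genes was 25.5 and 27.2 RPKM in controls and 18.6 and 18.7 RPKM after knockdown, so the gain in EZH1 did not make up for the loss of EZH2 transcript.

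**Figure D2:**
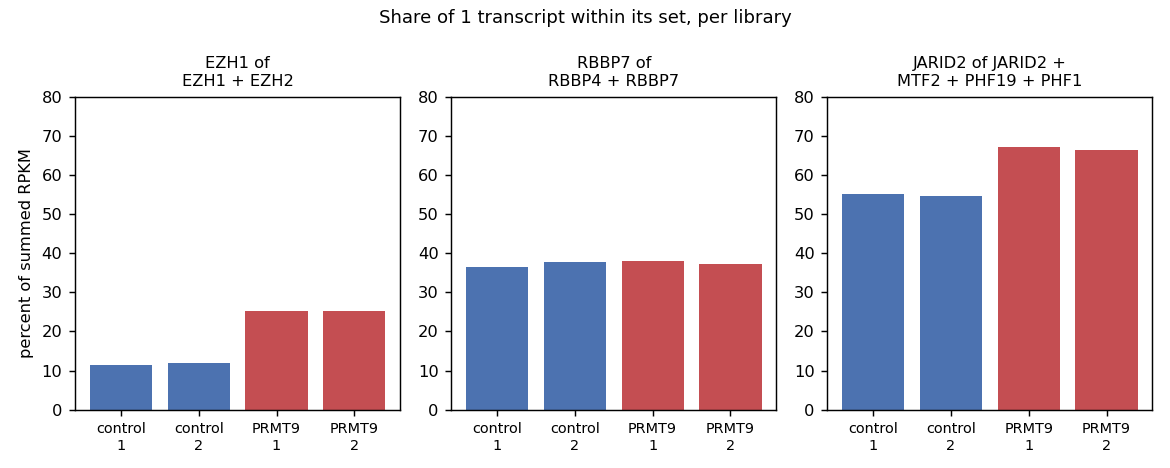
Shares of transcript level in each library, from RPKM (percent of summed RPKM, axis from 0 to 80): EZH1 of EZH1 plus EZH2, RBBP7 of RBBP4 plus RBBP7, and JARID2 of JARID2, MTF2, PHF19 and PHF1. The EZH1 share goes from 11.3 and 11.9% to 25.1 and 25.3% and the JARID2 share from 55.2 and 54.7% to 67.1 and 66.4%, while the RBBP7 share stays between 36.5 and 38.0%.

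The remaining core subunits all fell, by less than EZH2 did. EED (chr11:86244544-86278813, plus strand), the reader of methylated H3K27, was at 37.3 and 36.0 CPM in controls and 27.7 and 26.8 CPM after knockdown. Its mean fell by 25.7% (log2 fold change -0.43, SE 0.05, edgeR adjusted p 4.2e-07). SUZ12 (chr17:31937018-32001045, plus strand), the scaffold, went from 139 and 141 CPM to 105 and 106 CPM. This was a fall of 24.7% (log2 fold change -0.41, SE 0.03, edgeR adjusted p 1.12e-10), close to that of EED. The SUZ12 to EED ratio in RPKM was 3.99 and 4.2 in controls and 4.07 and 4.22 after knockdown, so these subunits stayed in the same proportion within the spread of the libraries. Likewise, the summed EZH1 and EZH2 level was 4.85 and 5.24 times that of EED in controls and 4.73 and 4.90 times after knockdown, a difference within the spread of the controls.

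RBBP4 and RBBP7 are closely related histone-binding proteins that also serve in other chromatin complexes, such as NuRD and, for RBBP4, CAF-1. RBBP4 (chr1:32651142-32686211, plus strand) was at 332 and 323 CPM in controls and 227 and 229 CPM after knockdown. RBBP7 (chrX:16839283-16870414, minus strand) was at 149 and 152 CPM against 109 and 106 CPM. Neither gene's groups overlapped. RBBP4 fell by 30.3% (log2 fold change -0.52, SE 0.02, edgeR adjusted p 1.95e-13) and RBBP7 by 28.7% (log2 fold change -0.49, SE 0.03, edgeR adjusted p 1.17e-11). Unlike the EZH pair, this pair kept its proportions: RBBP4 stood at 1.74 and 1.65 times RBBP7 in control RPKM and at 1.63 and 1.69 times after knockdown, ranges that overlap. The change of that ratio, -0.03 on the log2 scale, took the opposite sign when control library 1 was left out (0.01).

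Sequence shared with other genes could touch some of these counts, because how reads mapping to several places were counted is not given in the sources used here. SUZ12P1, a partial SUZ12 pseudogene on chromosome 17 (30709299 to 30790908, plus strand), drew 40.0% as many counts as SUZ12, and 6.57% of the 50-base windows of the SUZ12 transcripts also occur in it. SUZ12P1 itself rose, from 43.4 and 40.5 CPM to 56.2 and 53.2 CPM (log2 fold change 0.38, SE 0.05, edgeR adjusted p 7.20e-07), opposite to SUZ12. In RPKM the SUZ12 to SUZ12P1 ratio went from 1.85 and 2.01 to 1.08 and 1.14. The other 10 rows that share a member's symbol each drew at most 0.10% of that member's counts, and JARID2, MTF2 and PHF19 shared no 50-base window with another gene. BMI1 shared 21.3% of its windows with the COMMD3-BMI1 read-through annotation, which had 0 counts in every library. The 3′ end of RBBP7 overlaps TXLNG on the opposite strand, which fell as well (log2 fold change -0.38, edgeR adjusted p 2.62e-07); without a stated strand setting, reads from the overlap cannot be told apart.

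JARID2 (ENSG00000008083, chr6:15246296-15522040, plus strand), a Jumonji-family protein without demethylase activity that recruits PRC2, showed the widest gap in reads of any member. It had 6007 and 5765 counts in controls and 10354 and 11254 counts after knockdown, or 199 and 203 CPM against 335 and 332 CPM. Both knockdown libraries lay far above both controls. The mean rose 1.66-fold, from 201 ± 3.37 to 333 ± 2.33 CPM (log2 fold change 0.73, SE 0.02, edgeR adjusted p 1.33e-15), at percentile 84.5 of all tested genes. JARID2 was the only member called higher against a minimum fold of 1.5 (adjusted p 6.27e-06).

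The Polycomb-like proteins changed little beside it. MTF2 (chr1:93079235-93139081, plus strand) was at 68.5 and 69.3 CPM in controls and 65.0 and 65.1 CPM after knockdown. Its log2 fold change of -0.08 (SE 0.04, edgeR adjusted p 0.048) only just passed the threshold, and the call was lost under 15 of 17 alternatives, among them leaving out any 1 library, with a reversed sign (0.01) under upper-quartile scaling. PHF19 (chr9:120855652-120894896, minus strand) was at 53.5 and 55.8 CPM against 48.3 and 48.3 CPM, a fall of 11.6% (log2 fold change -0.18, SE 0.04, edgeR adjusted p 0.0012). Upper-quartile scaling left PHF19 at -0.09 and uncalled (adjusted p 0.073). Per exon length, JARID2 stood at 2.85 and 2.88 times MTF2 in controls and at 5.06 and 5.0 times MTF2 after knockdown. Of the summed RPKM of JARID2, MTF2, PHF19 and PHF1, the JARID2 share went from 55.2% and 54.7% to 67.1% and 66.4%.

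BMI1 (chr10:22321211-22331484, plus strand), the PRC1 subunit known for keeping blood and leukaemia stem cells self-renewing, had the highest mean level per exon length of the members in both groups, although JARID2 came within its spread after knockdown. It was at 271 and 256 CPM in controls and at 237 and 248 CPM after knockdown. The groups did not overlap, but the gap between the lower control and the higher knockdown library was smaller than the distance between the 2 libraries of either group. The fall of 7.92% (log2 fold change -0.12, SE 0.03, edgeR adjusted p 0.0011) was not called under upper-quartile scaling (-0.03, adjusted p 0.34). PCGF2, the closest paralogue of BMI1 and chosen here after its values were seen, had only 16 to 38 counts per library and was not called.

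**Figure D3:**
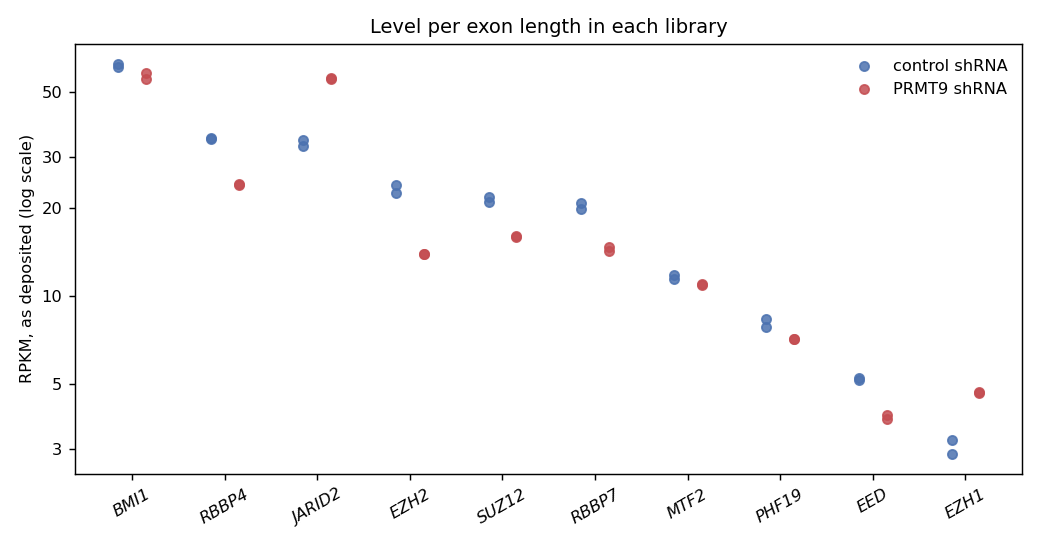
Deposited RPKM of each member (log axis), 1 point per library, ordered by control mean. JARID2 moves from 32.6 and 34.2 RPKM, near RBBP4, to 55.5 and 55.1 RPKM, near BMI1, EZH2 falls from 22.6 and 24.0 to 13.9 and 14.0 RPKM, and EZH1 passes EED.

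Placed in order of level per exon length, the control libraries gave BMI1 (61.5 ± 1.33 RPKM, SD, n = 2), RBBP4 (34.6 ± 0.09), JARID2 (33.4 ± 1.14), EZH2 (23.3 ± 1.00), SUZ12 (21.4 ± 0.61), RBBP7 (20.4 ± 0.68), MTF2 (11.7 ± 0.29), PHF19 (8.12 ± 0.38), EED (5.22 ± 0.04) and EZH1 (3.06 ± 0.24). RBBP4 and JARID2 were the only neighbours whose means lay within the larger of their SDs. After knockdown the order was BMI1 (56.5 ± 1.78 RPKM), JARID2 (55.3 ± 0.30), RBBP4 (24.1 ± 0.16), SUZ12 (16.1 ± 0.08), RBBP7 (14.5 ± 0.28), EZH2 (13.9 ± 0.04), MTF2 (10.99 ± 0.03), PHF19 (7.16 ± 0.02), EZH1 (4.70 ± 0.04) and EED (3.88 ± 0.08). BMI1 and JARID2 now lay within the larger of their SDs of each other. EZH2 had gone from rank 4 to rank 6, below SUZ12 and RBBP7, and EZH1 from rank 10 to rank 9. The RPKM use the summed length of all annotated exons, so a level relative to another gene depends on which transcripts the cells used.

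**Figure D4:**
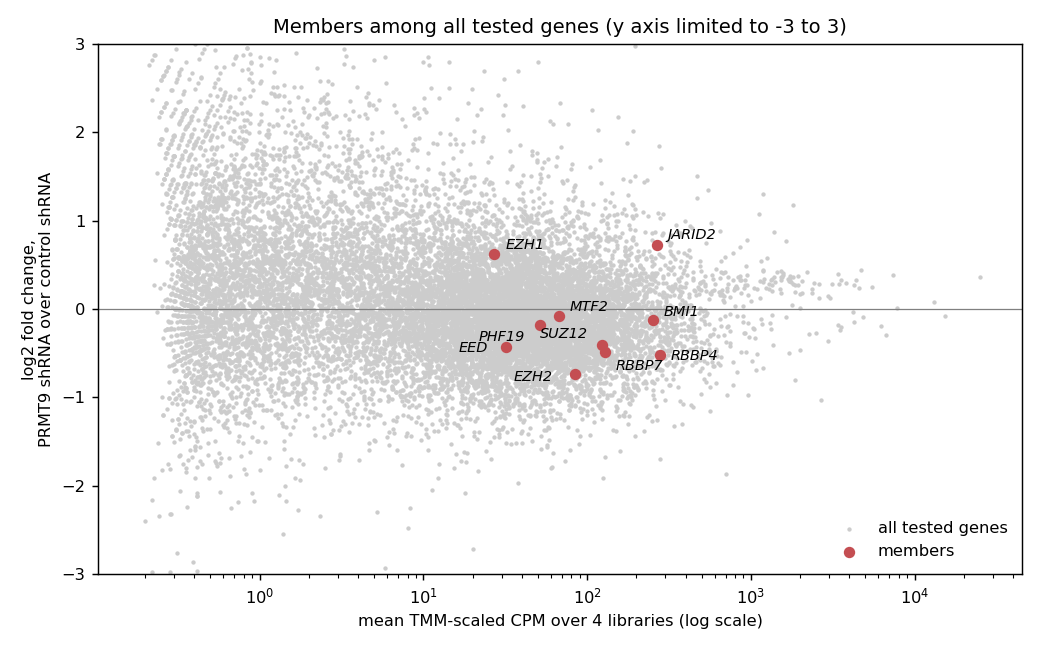
Log2 fold change (PRMT9 shRNA over control shRNA) against mean CPM over the 4 libraries (log axis) for all tested genes, with members in red; the y axis stops at -3 and 3, which leaves out 109 genes. EZH1 (0.62) and JARID2 (0.73) lie above the line at 0 and EZH2 (-0.74) lies lowest of the members.

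The other Polycomb genes, 50 in number, gave 47 tested genes, of which 13 rose, 23 fell and 11 were not called. The 76.6% called stand beside 67.9% of all tested genes and 82.4% of those at 10 CPM or more, and upper-quartile scaling called 19 higher and 21 lower. Their median log2 fold change was -0.09, beside 0.00 for all tested genes and -0.10 for those at 10 CPM or more. Against a minimum fold of 1.5, 12 of them were called (5 higher and 7 lower), beside 19.1% of all tested genes. Among the other PRC2 accessory genes, 1 of 5 tested rose (20%) and 3 fell (60%). Of all tested genes 33.4% rose and 34.5% fell, and of those at 10 CPM or more 33.7% rose and 48.7% fell. EPOP (C17orf96 in the table), which couples PRC2 to elongin and is not found together with JARID2, was at 48.5 and 47.0 CPM in controls and 21.9 and 22.6 CPM after knockdown, a larger fall than that of any member (log2 fold change -1.10, SE 0.05, edgeR adjusted p 3.36e-13). AEBP2, the partner of JARID2 in the same PRC2 form, went the other way from it, from 51.8 to 47.1 CPM (-0.14, adjusted p 0.0083, a call lost under 5 of 17 alternatives, among them leaving out PRMT9 shRNA library 2). PHF1, the third Polycomb-like gene, rose from 27.6 to 33.78 CPM (0.30, adjusted p 1.38e-04), while LCORL fell slightly (-0.21, adjusted p 0.0015, lost under 5 of 17).

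Among the core and canonical PRC1 genes that share the complex with BMI1, 3 of 13 tested rose and 5 fell, with a median of 0.05. The 23.1% higher stand beside 33.4% of all tested genes and 33.7% of those at 10 CPM or more. The 38.5% lower stand beside 34.5% and 48.7%. RNF2, the E3 ligase subunit also called RING1B, fell from 52.5 to 41.4 CPM (log2 fold change -0.34, edgeR adjusted p 8.97e-07). Its relative RING1 rose from 36.7 to 40.5 CPM (0.14, adjusted p 0.012). PHC1 rose from a low level, 3.05 CPM, to 5.82 CPM (0.93, adjusted p 3.49e-05). The chromodomain genes, whose proteins bind the mark that PRC2 makes, split: CBX2 fell from 26.8 and 22.5 CPM to 15.1 and 14.5 CPM (-0.74, adjusted p 1.03e-07) and CBX6 from 86.7 to 60.9 CPM (-0.51, adjusted p 9.57e-11). CBX7 rose from a low level, 1.75 and 2.046 CPM, to 4.88 and 5.95 CPM (1.51, adjusted p 2.07e-07). SCML2 fell from 24.7 to 14.1 CPM (-0.80, adjusted p 1.33e-08), SCMH1 was at -0.09 (adjusted p 0.049, lost under 15 of 17 alternatives, among them leaving out any library but PRMT9 shRNA library 2) and PHC3 was not called (-0.06, adjusted p 0.22; its sign reversed under upper-quartile scaling and without control library 1, and it was called lower without control library 2, at -0.11 with adjusted p 0.028).

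In the variant PRC1 complexes, which use PCGF proteins other than BMI1, 11 of 17 genes fell (64.7%, beside 34.5% of all tested genes and 48.7% of those at 10 CPM or more). A further 4 rose (23.5%, beside 33.4% of all tested genes and 33.7% of those at 10 CPM or more). The median over the list was -0.27. L3MBTL2 fell from 56.8 to 29.97 CPM (log2 fold change -0.92, edgeR adjusted p 1.44e-12) and the deubiquitinase USP7 from 201 to 138 CPM (-0.54, adjusted p 4.14e-13). E2F6 had the largest fall of the list (-0.95, adjusted p 2.43e-08), and YAF2 was at -0.86 (adjusted p 9.18e-09). The genes that rose were PCGF3, from 43.9 to 63.5 CPM (0.53, adjusted p 1.45e-09), the co-repressors BCORL1 (0.66, adjusted p 2.74e-09) and BCOR (0.19, adjusted p 1.05e-05), and FBRS (0.36, adjusted p 3.06e-08). PCGF1 was not called (0.06, adjusted p 0.52).

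The Polycomb deubiquitinase complex PR-DUB, which removes the PRC1 mark, had 3 of 10 tested genes higher and 4 lower. The 30% higher stand beside 33.4% of all tested genes and 33.7% of those at 10 CPM or more. The 40% lower stand beside 34.5% and 48.7%. HCFC1 fell from 260 to 142 CPM (log2 fold change -0.88, edgeR adjusted p 1.91e-16) and ASXL2 from 117 to 75.7 CPM (-0.63, adjusted p 3.40e-12). OGT, which attaches the sugar GlcNAc to proteins, rose from 306 to 475 CPM (0.63, adjusted p 2.55e-15), KDM1B from 133 to 209 CPM (0.65, adjusted p 3.61e-14) and MBD5 by 0.39 (adjusted p 1.47e-04, a call lost under 4 of 17 alternatives). ASXL1, a gene often mutated in myeloid disease, was not called (0.01, adjusted p 0.72), and neither was FOXK1 (0.02, adjusted p 0.66), whose sign reversed without control library 2. Upper-quartile scaling called both higher (ASXL1 0.10, adjusted p 0.0082; FOXK1 0.11, adjusted p 0.0077).

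The enzymes that remove H3K27 methylation rose while EZH2 fell. KDM6B was at 26.1 and 27.8 CPM in controls and at 53.8 and 54.6 CPM after knockdown (log2 fold change 1.01, SE 0.05, edgeR adjusted p 7.05e-13), and KDM6A went from 33.4 to 37.4 CPM (0.17, adjusted p 0.0083, a call lost under 7 of 17 alternatives, among them leaving out control library 1 or PRMT9 shRNA library 2). Of 13 genes reported elsewhere as repressed by Polycomb proteins, 9 could be tested, of which 7 rose (77.8%, beside 33.4% of all tested genes) and 2 fell; the median of their log2 fold changes was 0.48 beside 0.00 for all tested genes. TXNIP rose from 243 and 247 CPM to 693 and 700 CPM (1.51, adjusted p 2.06e-20) and CDKN1A, which encodes the cell cycle inhibitor p21, from 265 to 403 CPM (0.60, adjusted p 7.91e-15). NLRC5 (-0.46, adjusted p 7.29e-07) and BCL2L11, which encodes the BCL2-binding protein BIM (-0.43, adjusted p 2.17e-08), fell. CDKN2A and CDKN2B, the best known Polycomb-silenced genes, had 0 counts in every library, which allows up to 0.089 to 0.105 CPM per library (3 counts each, counting error only). Such counts cannot tell a silenced gene from one missing from the cells' DNA, which was not tested, so neither gene reports on Polycomb silencing here. Histone marks were not measured in these libraries.

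**Figure D5:**
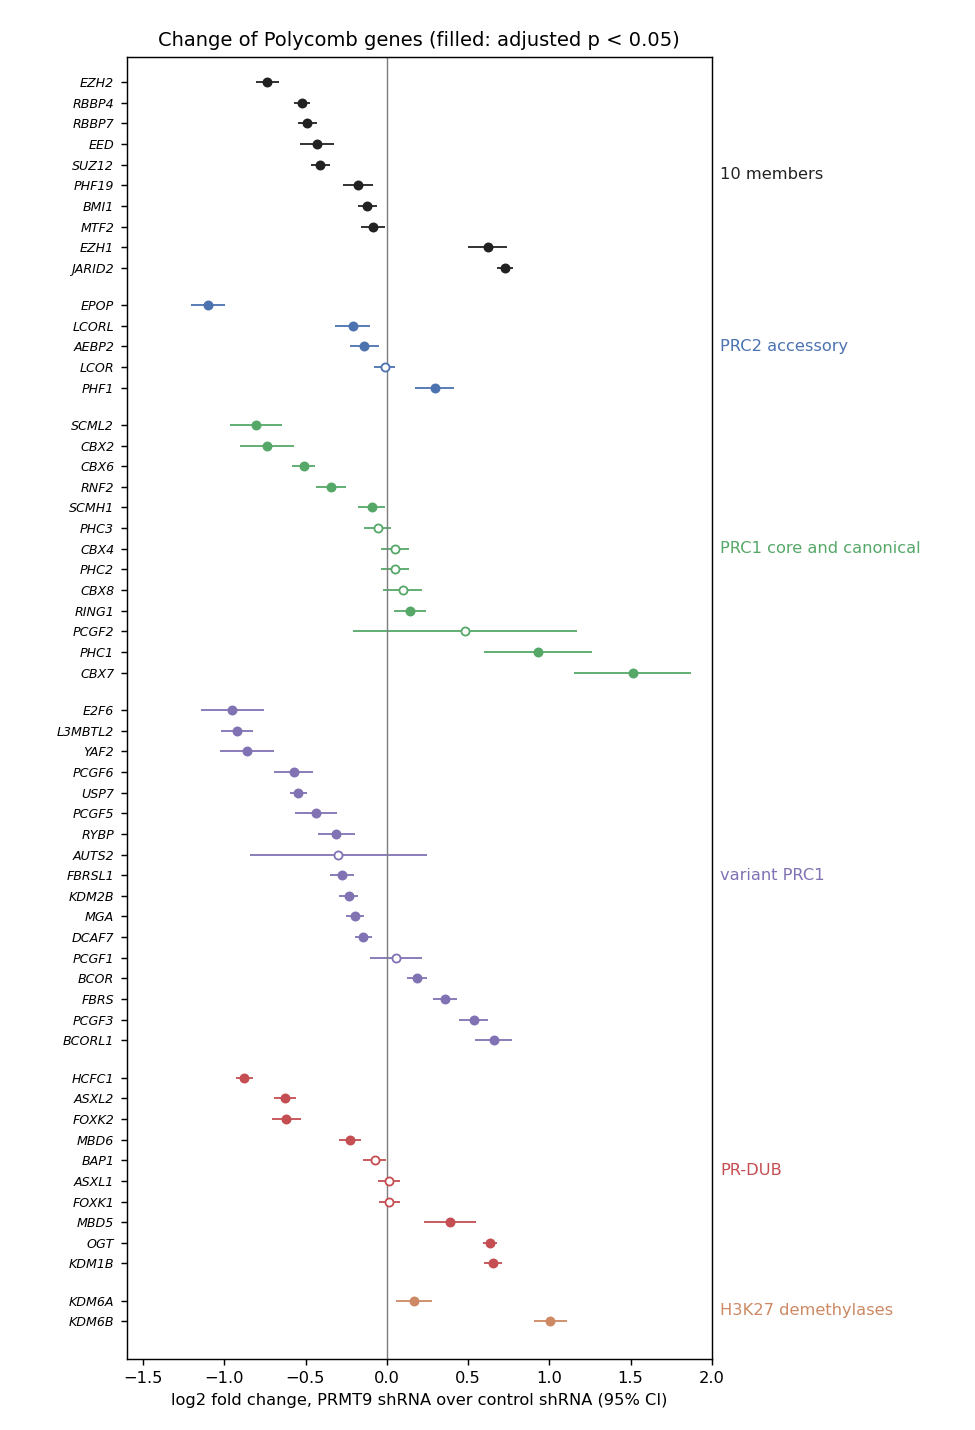
Log2 fold change (PRMT9 shRNA over control shRNA) with its 95% interval from edgeR for the 10 members and the 47 other Polycomb genes tested; filled points passed an adjusted p below 0.05. Among members, 5 core genes lie between -0.74 and -0.41 and JARID2 and EZH1 at 0.73 and 0.62, while MTF2 (-0.08, positive under upper-quartile scaling) lies next to 0.

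Genes of cell proliferation fell along with EZH2, EED, SUZ12, RBBP4 and RBBP7, and opposite to EZH1 and JARID2. All 20 proliferation genes examined fell, with log2 fold changes from -1.83 to -0.48 and a median of -0.97, and their summed level was 5251 and 5303 CPM in controls against 2792 and 2806 CPM after knockdown. The 5 core PRC2 genes that fell did so by less than that median, and the part of the proliferation genes in the members' values was not tested. The summed level of the 8 myeloid markers was 1543 and 1530 CPM in controls and 2118 and 2117 CPM after knockdown. Within that sum, LYZ alone went from a mean of 607 to 942 CPM. Of the 8, 7 were called higher and 1, MPO, lower (log2 fold change -0.47, edgeR adjusted p 1.34e-08). Among genes at 10 CPM or more, 33.7% were called higher and 48.7% lower. The part of the myeloid markers in the members' values was not tested either.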

How the data were processed

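RNA was extracted with Trizol and poly(A) libraries were prepared from it (Kapa mRNA HyperPrep kit), per the labels' protocols. The submitters' processing notes name Trimmomatic 0.39, STAR 2.7.2a, SAMtools 1.10 and build GRCh38 without their roles; not given in the sources used here are the counting tool, its strand setting, the annotation release and how reads mapping to several places were treated. The authors deposited 1 table of whole-number read counts per gene and 1 of RPKM values, both over the same genes and with a column per library. The table's gene coordinates for all 10 members equal those of GENCODE release 29.

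Counts were fitted with edgeR 4.0.16 in R 4.3.3 (quasi-likelihood test, robust, TMM scaling, filterByExpr with a count minimum of 10, Benjamini-Hochberg adjustment over all 15193 genes tested, threshold 0.05), with all 4 libraries and no covariate. The filter kept 99.9% of all counts. CPM are TMM-scaled, and every adjusted p is edgeR's unless another tool is named. RPKM served only for levels between genes and ratios. Alternatives used DESeq2 1.42.0 and limma 3.58.1 (limma-voom, and log2(RPKM + 1) or log2(RPKM + 0.1)), and the steps were tested on simulated data. Replicate numbers were not taken as pairs, since deviations of same-numbered libraries correlated at -0.03.

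The members, the gene lists and the tests were chosen with earlier results of these data known. Named beside the members were, per list, the 4 genes with the lowest adjusted p and genes at 10 CPM or more whose direction was opposite to the list's median. RING1, PHC1, E2F6 and YAF2 were added after their values were seen. Promoter windows are RefSeq's, 16 windows for the 10 members, with 1 used per member; protein sequences were not used here. Each motif was searched on both strands.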

Additional observations from a re-analysis of the deposited data

How the results depend on the processing

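Of 17 alternatives, EZH2 (log2 fold change -0.77 to -0.65) and JARID2 (0.70 to 0.82) passed the test in all. EZH1 (0.49 to 0.71), EED (-0.45 to -0.34), SUZ12 (-0.43 to -0.32), RBBP4 (-0.53 to -0.43) and RBBP7 (-0.51 to -0.40) kept direction and missed only the test against a 1.5-fold change. That test called 1 member higher and 1 lower, 5 other Polycomb genes higher and 7 lower, and 1689 genes of the table higher and 1212 lower. Upper-quartile scaling, which moved the median of all genes by 0.09, called 5 members lower, without BMI1, PHF19 and MTF2, and reversed MTF2 (0.0052) and PHC3 (0.033). limma on log2(RPKM + 1) without a filter on low values called 5 members lower, 6 other Polycomb genes higher and 13 lower, and 2604 and 3141 genes of the table. Leaving out 1 library in turn gave 2 members higher and 7 lower each time, since MTF2 was lost; it put PHC3 between -0.11 and 0.0079 (the latter without control library 1), FOXK1 between -0.0036 (without control library 2) and 0.047, and the log2 change of the RBBP4 to RBBP7 ratio between -0.069 and 0.0051 (without control library 1). With the replicate block, 2 members were higher and 7 lower (MTF2 adjusted p 0.059), and 5014 genes of the table were higher and 5229 lower; the labels do not say what the numbers share. With 2 libraries a group, adjusted p-values rest on a spread shared across genes, and changes of the size of MTF2's, BMI1's and PHF19's depend on the scaling.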
